A study of Homo sapiens with 6 samples.

Results

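The SLC25 family holds the carrier proteins that exchange nucleotides, phosphate, carboxylates, amino acids and cofactors across the inner mitochondrial membrane. Its members were taken as every row of the count tables whose symbol is SLC25A followed by a number and which had at least 10 counts over the 6 libraries. This gave 44 members of 56832 rows, from 48 symbols that matched. The libraries were poly(A) RNA-seq libraries of HEK293T, a line derived from human embryonic kidney, in which GLO1 was knocked out. GLO1 encodes the first enzyme that detoxifies methylglyoxal (MGO), a reactive by-product of glycolysis. In 3 libraries the cells had been given 0.2 mM MGO overnight, and 3 libraries came from untreated cells of the same genotype. All 6 libraries thus share the knockout and 1 line, no line with intact GLO1 was analysed here, and the labels do not say whether the cultures behind the libraries were separate. The p-values therefore capture no more than the spread among these 6 libraries.

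Inner-membrane carriers are built from repeats of a pair of membrane helices and alternate between a state open to the cytosol and one open to the matrix. They are encoded in the nucleus, made in the cytosol and inserted by the TIM22 complex, and many work as exchangers, so that export of ATP, for example, is coupled to import of ADP. Several substrates are served by closely related genes that tissues use in different proportions, and a few members act in peroxisomes or in the outer membrane.

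Library totals ranged from 19195920 to 21544749 counts in MGO and from 41002134 to 45910040 counts in untreated cells, so MGO values are the less precise ones. Reads were amplified by PCR and carry no molecular identifiers, so a read is not an independent molecule. Genes encoded by mitochondrial DNA took 8.17%, 6.00% and 5.34% of the counts in MGO, against 5.42%, 4.20% and 4.28% in untreated cells, and the part of this in the results was not tested. GLO1 had 2434, 2641 and 3048 raw counts in MGO and 2365, 2246 and 1969 in untreated cells. Its reads were thus higher in MGO, and by more than the raw counts show, since the MGO libraries were shallower. The labels do not place the deletion, so these counts do not check the knockout. All 5 markers listed for HEK293T (VIM, KRT8, KRT18, PAX2, NEFM) were detected, NEFM with only 241 counts over the 6 libraries. PTPRC, PECAM1, COL1A2, ALB and HBB, markers of other cell types, totalled 8, 9, 0, 20 and 1 counts over the same libraries. PAX2 and NEFM were lower in MGO (log2 fold changes -2.24 and -1.80), and VIM, KRT8 and KRT18 were higher (0.37, 0.65 and 0.67).

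Most carrier mRNAs differed between MGO and untreated cells, more of them lower than higher, and mostly by less than 2-fold. Of the 42 members that passed the filter on low counts, 39 passed edgeR's quasi-likelihood test at an adjusted p of 0.05, which is 92.9% where 83.1% of all 17415 genes tested passed. Lower in MGO were 26 members (61.9%, against 41.2% of all genes), and higher were 13 (31.0%, against 41.8%). The median log2 fold change was -0.27 over the members and 0.01 over all genes, and the median size of the change was 0.51 for members and 0.71 for all genes. Libraries of the 2 groups did not overlap for 38 members (90.5%, against 83.5% of all genes). The share called exceeded that of all genes by less with the replicate number as a block, and fell below it with a stricter filter on low counts. In bulk RNA, less RNA per cell and fewer cells carrying it cannot be told apart.

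A test against a minimum fold of 1.5 set the larger changes apart. It passed 15 members (35.7%, against 47.7% of all genes). Higher were SLC25A25, SLC25A27, SLC25A28, SLC25A34 and SLC25A38, or 11.9% against 25.1% of all genes. Lower were SLC25A4, SLC25A10, SLC25A12, SLC25A13, SLC25A15, SLC25A21, SLC25A23, SLC25A29, SLC25A30 and SLC25A53, or 23.8% against 22.6%. The split of 5 higher and 10 lower became 2 and 11 when counts were scaled by library size only, where the median log2 fold change of all genes was -0.10. With no filter on low counts it became 1 and 13, at a median of 0.2 over all genes. It was 3 and 11 without MGO replicate 1, and 3 and 10 without MGO replicate 3 or without untreated replicate 2. Among called members, SLC25A25 and SLC25A34 were at least 2-fold higher (4.76%, against 19.8% of all genes). SLC25A12, SLC25A15 and SLC25A21 were at least 2-fold lower (7.14%, against 16.7%). These 3 and SLC25A25 stayed past 2-fold in all 17 alternative fits, but the counts moved. Lower by at least 2-fold were 6 members without MGO replicate 1 or 3, 5 without untreated replicate 4, 5 without both libraries numbered 1, 7 with library size only and 9 with no filter on low counts. SLC25A34 dropped out in 6 of the 17, among them those without MGO replicate 3, without untreated replicate 2, with library size only and with no filter. Also among the 6 is a fit with a stricter filter on low counts, in which SLC25A34 was not tested.

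**Figure D1:**
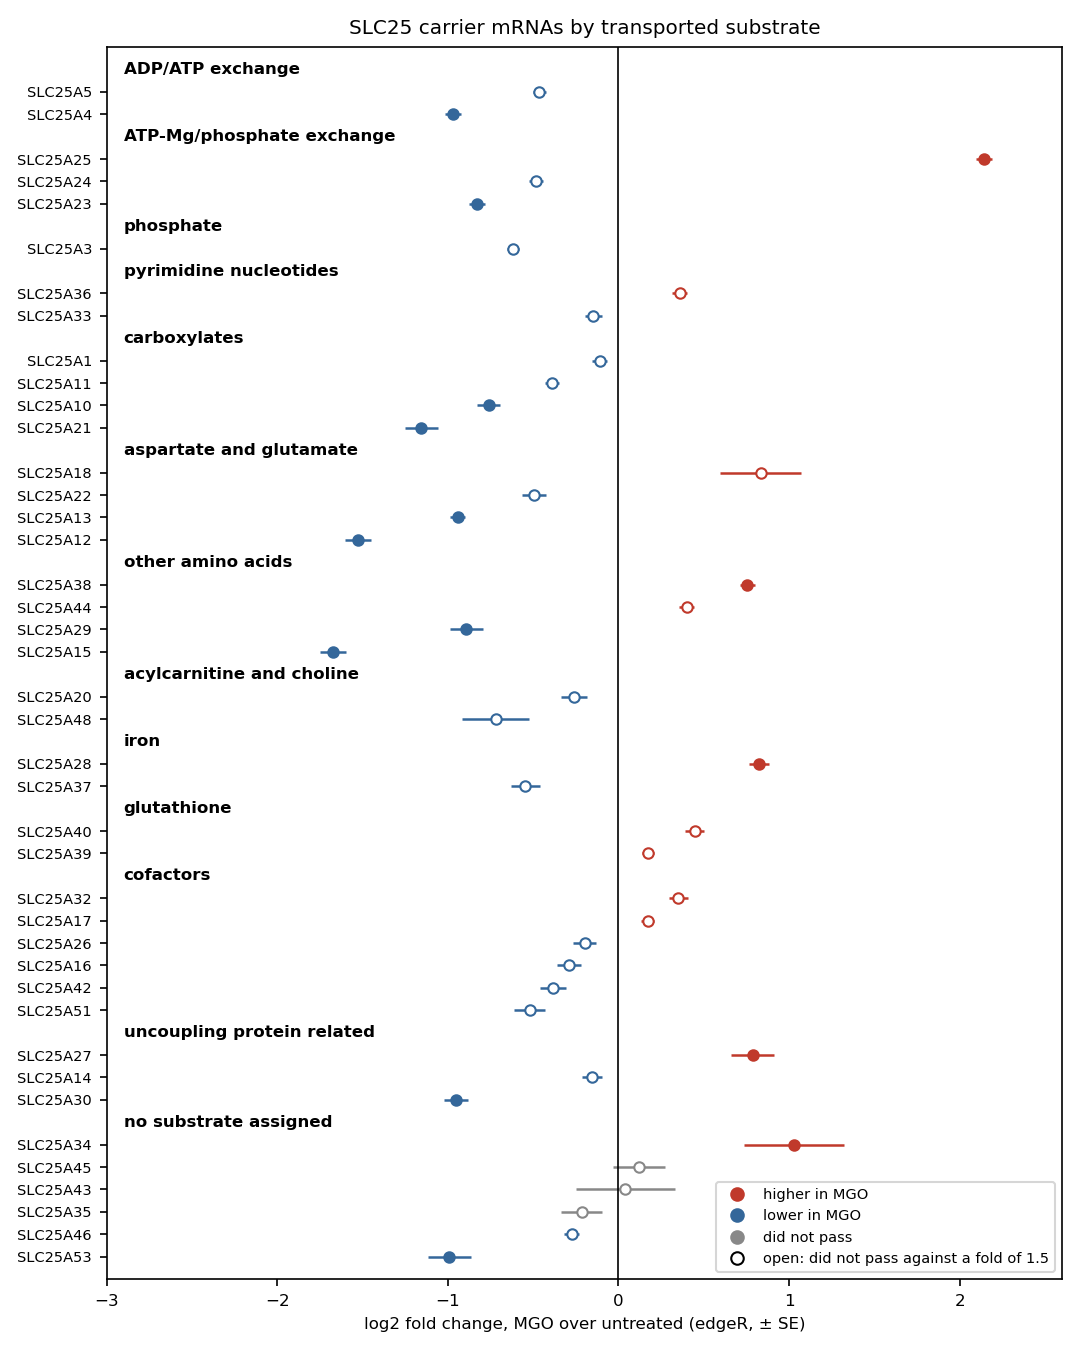
Log2 fold change, MGO over untreated, of the tested carriers named in the text, grouped by transported substrate. Points are edgeR estimates and bars their standard errors, and filled points passed the test against a fold of 1.5. SLC25A25, at 2.14, stands to the right of every other member, and SLC25A15, at -1.67, to the left.

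The carriers of adenine nucleotides and phosphate serve ATP synthesis, and they include the most abundant members. Levels are given as CPM, the counts of a gene per 1000000 counts of a library whose size was scaled by the TMM method. SLC25A5, the ADP/ATP carrier of dividing cells, had 377, 362 and 344 CPM in MGO and 496, 499 and 498 CPM in untreated cells, a log2 fold change of -0.46 (SE 0.04). SLC25A4, the ADP/ATP carrier best known from heart and muscle, had 41.3, 40.0 and 37.9 CPM in MGO and 81.2, 77.4 and 74.3 CPM in untreated cells (log2 fold change -0.97, SE 0.05, adjusted p = 2.304e-18 by edgeR). SLC25A3, which brings phosphate into the matrix, had 396, 368 and 363 CPM in MGO and 586, 570.4 and 574 CPM in untreated cells (log2 fold change -0.62, SE 0.04). For each of the 3 genes every MGO library lay below every untreated library. SLC25A5 has 9 pseudogenes named after it, and its exons overlap SLC25A5-AS1 over 227 bases. No source used here says whether strand was used in counting, so reads of such neighbours and copies may be misassigned. The same holds for 21 members whose exons overlap another gene and 13 with named pseudogenes. Overlaps on the same strand, which use of strand would not resolve, reach 2547 bases for SLC25A32 and 1221 for SLC25A10.

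SLC25A25 was the member with the largest rise, and it belongs to a small class whose other tested members fell. The class exchanges ATP-Mg for phosphate under control of calcium and thereby sets the adenine nucleotide content of the matrix. SLC25A25 had 87.0, 87.0 and 86.2 CPM in MGO and 20.9, 18.7 and 19.4 CPM in untreated cells. Its mean was 86.8 ± 0.456 CPM in MGO and 19.7 ± 1.09 CPM in untreated cells (SD, n = 3 each), 4.41-fold higher (log2 fold change 2.14, SE 0.05, adjusted p = 4.065e-27 by edgeR). It was the only one of the 44 members with more raw counts in every MGO library than in every untreated library, although the MGO libraries were shallower. Among all genes tested, 8.78% had a larger positive log2 fold change. The exons of SLC25A25 overlap SLC25A25-AS1, on the other strand, over 665 bases.

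SLC25A23 had 55.2, 63.1 and 59.6 CPM in MGO, against 112, 102 and 102 CPM in untreated cells (log2 fold change -0.83, SE 0.05). SLC25A24 had 53.2, 53.7 and 53.9 CPM in MGO, against 73.3, 75.0 and 76.4 CPM in untreated cells (log2 fold change -0.48, SE 0.04). Both genes were lower in every MGO library. SLC25A41, a member of the class without the calcium-binding part, had 46 counts in all and was not tested.

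The promoters of the carriers with the largest rise and the largest fall are shown because these members bound the range of changes. Both come from RefSeq on GRCh38.p14 and run from 250 bases before to 50 bases after the annotated start, each on the plus strand. That of SLC25A25 is chr9:128098257-128098556, and that of SLC25A15 is chr13:40789361-40789660. The SLC25A25 start lies inside the span that GENCODE 29 gives the gene (GRCh38, chromosome 9, 128068201 to 128109245), which also covers starts further upstream, and counts per gene do not tell which start was used. Capitals mark matches to the motifs searched.
SLC25A25: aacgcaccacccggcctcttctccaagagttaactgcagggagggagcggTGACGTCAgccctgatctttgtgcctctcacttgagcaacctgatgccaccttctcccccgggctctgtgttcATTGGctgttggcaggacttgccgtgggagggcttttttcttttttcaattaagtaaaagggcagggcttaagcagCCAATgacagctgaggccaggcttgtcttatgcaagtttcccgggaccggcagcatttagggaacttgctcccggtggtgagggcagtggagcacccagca
SLC25A15: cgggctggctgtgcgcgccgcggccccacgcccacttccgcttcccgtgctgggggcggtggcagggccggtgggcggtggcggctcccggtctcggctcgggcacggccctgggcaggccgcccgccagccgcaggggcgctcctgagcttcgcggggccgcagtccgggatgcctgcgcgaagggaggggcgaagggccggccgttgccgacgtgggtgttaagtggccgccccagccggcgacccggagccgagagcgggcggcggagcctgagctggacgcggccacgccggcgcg

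The SLC25A25 window is 56% G and C and holds TGACGTCA, the cAMP response element (CRE), beginning 200 bases before the start. It also holds CCAAT on either strand at 127 and at 51 bases before the start. The SLC25A15 window is 80% G and C and holds none of the motifs searched, which says only that those letters are not in this window. Promoters were found for 37 members, of which 36 were tested, and motifs were read on both strands. CCAAT stood in 18 of the 36 (50%, against 35.7% of 27305 promoters of all genes), in 7 of 11 higher and 11 of 23 lower members. The CRE, a motif added to the search after the SLC25A25 sequence had been seen, stood in SLC25A25, SLC25A33 and SLC25A36 (8.33%, against 1.98% of all promoters). The E-box CACGTG stood in 6 members (16.7%, against 7.44%), and the ETS motif CCGGAAGT in 3 (8.33%, against 4.44%). The C/EBP-ATF core TGATGNAA was found in SLC25A11 alone (3.67% of all promoters) and the sterol element TCACNCCAC in SLC25A40 alone (1.146%). The AP-1 motif TGANTCA (7.76% of all promoters) and the palindromic NRF1 motif (1.36%) were in none of the 36.

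The pyrimidine nucleotide carriers supply the matrix for mitochondrial DNA and RNA synthesis, and the 2 genes moved apart. SLC25A36 had 64.2, 62.5 and 66.5 CPM in MGO and 48.7, 50.4 and 51.5 CPM in untreated cells (log2 fold change 0.36, SE 0.04). SLC25A33 had 41.8, 41.6 and 39.1 CPM in MGO and 47.0, 44.6 and 43.9 CPM in untreated cells (log2 fold change -0.15, SE 0.05, adjusted p = 0.006597 by edgeR). The groups did not overlap for either gene, but SLC25A33 lost its call in 3 of 17 alternative fits. These were DESeq2 (adjusted p = 0.05232), edgeR with untreated libraries thinned (adjusted p = 0.05214) and edgeR with at least 1 CPM in every library. In the last its log2 fold change was -0.08 (edgeR adjusted p = 0.1146).

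All 4 carriers of citric acid cycle and related carboxylates passed as lower in MGO, with sizes that differed widely. SLC25A21, which carries oxodicarboxylates of lysine and tryptophan breakdown, had 5.03, 4.19 and 4.61 CPM in MGO and 10.3, 10.1 and 10.4 CPM in untreated cells, 2.23-fold lower (log2 change -1.16, SE 0.10, adjusted p = 1.916e-12 by edgeR). SLC25A10, which exchanges malate and succinate for phosphate, had 14.3, 14.9 and 13.1 CPM in MGO and 25.2, 23.3 and 23.0 CPM in untreated cells (log2 fold change -0.76, SE 0.07). For both genes the MGO libraries were all below the untreated ones. The exons of SLC25A21 overlap SLC25A21-AS1 over 586 bases, and that row itself had 20, 28 and 39 raw counts in MGO and 57, 58 and 54 in untreated cells. These raw counts are not scaled for depth and do not show a fall. Library totals were 19195920 to 21544749 counts in MGO and 41002134 to 45910040 in untreated cells.

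SLC25A11, the oxoglutarate/malate exchanger of the malate-aspartate shuttle, had 172, 168 and 155 CPM in MGO and 217, 212 and 218 CPM in untreated cells (log2 fold change -0.39, SE 0.04). SLC25A1, which exports citrate for fatty acid and sterol synthesis, had 288, 260.1 and 247 CPM in MGO and 292, 279 and 286 CPM in untreated cells. Its groups overlapped, since MGO replicate 1 lay above the untreated libraries 2 and 4. Its log2 fold change of -0.11 (SE 0.04) passed with an adjusted p of 0.02244 by edgeR. The call was lost in 8 of 17 alternative fits, including DESeq2 (adjusted p = 0.09295) and the edgeR fits without untreated replicate 1 (adjusted p = 0.0758) and without untreated replicate 4 (0.05334). It was weakest with at least 1 CPM in every library (log2 fold change -0.05, edgeR adjusted p = 0.3312).

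The aspartate and glutamate carriers had the lowest summed level relative to untreated cells of the 13 substrate classes. SLC25A12 (aralar) and SLC25A13 (citrin) exchange aspartate for glutamate in the malate-aspartate shuttle, which moves reducing equivalents of cytosolic NADH into the matrix. SLC25A12 had 7.96, 8.75 and 7.13 CPM in MGO, against 22.6, 23.6 and 22.3 CPM in untreated cells, 2.88-fold lower (log2 fold change -1.53, SE 0.08, adjusted p = 4.163e-18 by edgeR). SLC25A13 had 50.7, 53.3 and 54.9 CPM in MGO, against 104, 101 and 100.2 CPM in untreated cells (log2 fold change -0.94, SE 0.04, adjusted p = 1.82e-19 by edgeR). Both were lower in every MGO library, with gaps well beyond the spread of either group. The glutamate carriers SLC25A22 and SLC25A18 went opposite ways. SLC25A22 had 15.9, 13.6 and 14.4 CPM in MGO and 19.2, 21.1 and 21.6 CPM in untreated cells (log2 fold change -0.49, SE 0.07). SLC25A18 had 188 counts in all, with 1.11, 1.29 and 1.76 CPM in MGO and 0.798, 0.690 and 0.869 CPM in untreated cells (log2 fold change 0.83, SE 0.24). Without MGO replicate 4 its log2 fold change was 0.57 and its edgeR adjusted p 0.06242.

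Among carriers of other amino acids, those of ornithine and of basic amino acids fell and those of glycine and branched-chain amino acids rose. SLC25A15, the ornithine/citrulline exchanger of the urea cycle, had the largest fall of the family. It had 7.07, 6.82 and 8.08 CPM in MGO and 22.2, 24.1 and 24.1 CPM in untreated cells. The MGO mean of 7.32 ± 0.666 CPM was 3.19-fold lower than the untreated mean of 23.5 ± 1.08 CPM (SD, n = 3 each). Its log2 fold change was -1.67 (SE 0.08), with an edgeR adjusted p of 6.786e-19. Among all genes tested, 6.37% had a larger negative log2 fold change. SLC25A15 has 5 named pseudogenes. SLC25A29, a carrier of basic amino acids, had 8.79, 6.50 and 5.94 CPM in MGO and 13.6, 12.8 and 12.7 CPM in untreated cells (log2 fold change -0.89, SE 0.10). Its groups did not overlap, though MGO replicate 1 lay closest to untreated cells. That library also had the highest share of mitochondrial counts, and a link between these was not tested.

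SLC25A38, which takes glycine into mitochondria for heme synthesis, had 61.1, 62.9 and 63.8 CPM in MGO and 36.1, 37.4 and 37.9 CPM in untreated cells (log2 fold change 0.75, SE 0.04, adjusted p = 3.834e-16 by edgeR). SLC25A44, the carrier of branched-chain amino acids, had 75.8, 81.0 and 87.0 CPM in MGO and 62.1, 62.5 and 60.2 CPM in untreated cells (log2 fold change 0.40, SE 0.04). Both were higher in every MGO library.

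**Figure D2:**
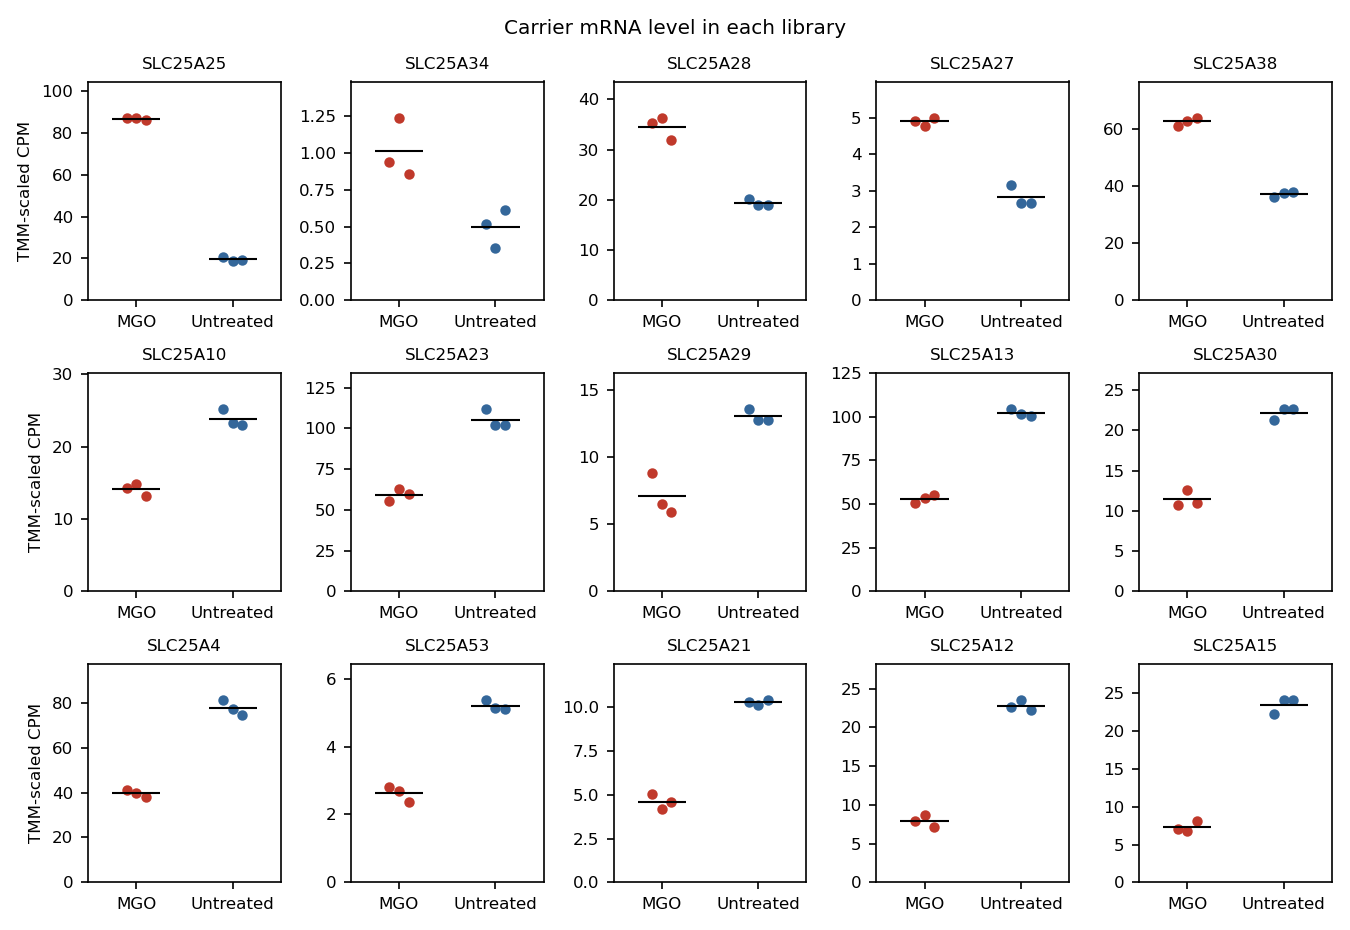
TMM-scaled CPM in each library (points) and the group mean (line) of the 15 carriers that passed the test against a fold of 1.5, MGO left and untreated right, each panel with its own axis from 0. In every panel the points of the groups do not overlap. SLC25A34, the least abundant, has no value above 1.24 CPM.

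The iron carriers also went opposite ways. SLC25A28 (mitoferrin 2), the widely expressed iron importer, had 35.4, 36.3 and 31.9 CPM in MGO and 20.2, 19.03 and 19.1 CPM in untreated cells (log2 fold change 0.83, SE 0.06, adjusted p = 2.641e-14 by edgeR). SLC25A37 (mitoferrin 1), best known from developing red cells, had 9.78, 10.6 and 8.17 CPM in MGO and 13.8, 14.7 and 13.0 CPM in untreated cells (log2 fold change -0.55, SE 0.09). Neither gene's groups overlapped.

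The 2 carriers linked to mitochondrial glutathione import both passed as higher, by small amounts that depend on scaling for the more abundant one. SLC25A40 had 28.5, 28.0 and 27.9 CPM in MGO and 19.8, 20.6 and 21.6 CPM in untreated cells (log2 fold change 0.45, SE 0.06). SLC25A39 had 299.6, 291 and 284 CPM in MGO and 267, 252 and 257 CPM in untreated cells, with groups that did not overlap (log2 fold change 0.17, SE 0.04). Its log2 fold change was 0.07 when scaled by library size only (adjusted p = 0.1194 by edgeR) and -0.01 with no filter on low counts.

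The 7 cofactor carriers all passed the test, 3 higher and 4 lower, and none passed against a fold of 1.5. SLC25A26 lost its call with DESeq2 (adjusted p = 0.05211) and with a filter of 1 CPM in every library (edgeR adjusted p = 0.05071), and SLC25A17 with library size only (edgeR adjusted p = 0.1608). SLC25A32, of folate and FAD, and SLC25A17, a peroxisomal carrier of CoA, FAD and NAD, had log2 fold changes of 0.35 and 0.17, and that of SLC25A17 was -0.01 with no filter on low counts. SLC25A51, the NAD carrier, had 6.74, 6.60 and 7.22 CPM in MGO and 10.6, 9.67 and 9.30 CPM in untreated cells (log2 fold change -0.52, SE 0.09). SLC25A42 and SLC25A16, both linked to CoA, and SLC25A26, which imports S-adenosylmethionine, had log2 fold changes of -0.38, -0.29 and -0.20. All 7 kept their groups of libraries apart.

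The acylcarnitine and choline carriers were both lower. SLC25A20, which brings acylcarnitines in for fatty acid oxidation, had 10.6, 10.7 and 11.7 CPM in MGO and 12.8, 13.8 and 13.0 CPM in untreated cells (log2 fold change -0.26, SE 0.08). SLC25A48, linked to choline, had 1.66, 1.45 and 0.998 CPM in MGO and 2.54, 2.11 and 2.02 CPM in untreated cells (log2 fold change -0.72, SE 0.20). The MGO libraries were below the untreated ones for both, with a narrow gap for SLC25A20.

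Members related to uncoupling proteins, whose substrates are less settled, split by gene. SLC25A30 had 10.8, 12.6 and 11.02 CPM in MGO and 21.3, 22.6 and 22.6 CPM in untreated cells (log2 fold change -0.95, SE 0.07). SLC25A27 had 4.92, 4.78 and 4.99 CPM in MGO and 3.17, 2.67 and 2.65 CPM in untreated cells (log2 fold change 0.79, SE 0.13), and it passed against a fold of 1.5 in 7 of 15 alternative fits. SLC25A14 had a log2 fold change of -0.15 (SE 0.06) and lost its call in 4 of 17 alternative fits. Among these were DESeq2 (adjusted p = 0.08987) and edgeR with at least 1 CPM in every library (adjusted p = 0.1313). Libraries of the groups did not overlap for any of these genes.

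Of 7 members with no substrate assigned here, 6 were tested. SLC25A53 had 2.82, 2.68 and 2.38 CPM in MGO and 5.37, 5.14 and 5.10 CPM in untreated cells (log2 fold change -0.99, SE 0.13). SLC25A46, an outer-membrane protein that acts in mitochondrial shape, had 78.2, 88.3 and 85.4 CPM in MGO and 98.6, 104 and 102 CPM in untreated cells (log2 fold change -0.27, SE 0.04). Both were lower in every MGO library. SLC25A34 had 0.939, 1.24 and 0.855 CPM in MGO and 0.518, 0.355 and 0.611 CPM in untreated cells (log2 fold change 1.03, SE 0.29, adjusted p = 0.001822 by edgeR), on 125 counts in all. SLC25A35, SLC25A43 and SLC25A45 did not pass (log2 fold changes -0.21, 0.04 and 0.12, edgeR adjusted p = 0.09803, 0.8991 and 0.4681) and their groups overlapped. SLC25A47, with 12 counts in all, was not tested.

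The 4 symbols that matched but had under 10 counts were SLC25A6 (0 counts), SLC25A2 and SLC25A31 (4 each) and SLC25A52 (7). SLC25A6 encodes another widely expressed ADP/ATP carrier and lies in the pseudoautosomal region shared by the X and Y chromosomes. Of the 18 protein-coding pseudoautosomal genes in the tables, 17 were listed at 0 in all 6 libraries and none reached 10 counts, so a 0 here does not show that SLC25A6 is not transcribed.

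Summed over all 44 members, carrier mRNAs took 2387, 2395 and 2365 CPM of the library total, here without TMM scaling, in MGO and 3062, 3046 and 3046 CPM in untreated cells. The ratio of the means was 0.781 (2382 ± 15.5 in MGO and 3051 ± 9.50 in untreated cells, SD, n = 3 each, exact two-sided permutation test p = 0.1, the smallest that 3 against 3 can give). SLC25A3 and SLC25A5 together made up 30.5%, 29.5% and 29.2% of the family's counts in MGO and 36.4%, 36.6% and 36.5% in untreated cells. Without them the ratio was 0.864. With TMM-scaled library sizes the ratio of all members was 0.841. SLC25A6, listed at 0 counts, adds nothing to these sums or to those by class. By class and library total, the sum in MGO was 0.489 of that in untreated cells for aspartate and glutamate carriers. The ratio was 0.604 for the phosphate carrier, 0.646 for ADP/ATP carriers (SLC25A4 and SLC25A5 only) and 0.720 for members related to uncoupling proteins. Acylcarnitine and choline carriers had 0.7445, members with no substrate assigned 0.767 and carboxylate carriers 0.777. Sums were higher in MGO for iron (1.23), other amino acids (1.09), glutathione (1.06) and pyrimidine nucleotides (1.03). The sums of cofactor and ATP-Mg carriers turned on the scaling. For cofactor carriers the ratio was 1.01 by library total, with groups that overlapped (exact two-sided permutation test p = 0.8), and 1.08 by TMM-scaled CPM, with groups apart. For the ATP-Mg class, in which SLC25A25 was higher and SLC25A23 and SLC25A24 lower, the ratio was 0.928 by library total, with groups apart, and 0.999 by TMM-scaled CPM, with groups that overlapped.

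To compare levels between genes, mean CPM was divided by the median length of each gene's basic protein-coding mRNAs in GENCODE 29. In MGO the highest were SLC25A5 with 283 CPM per kb, SLC25A3 with 277, SLC25A39 with 189, SLC25A1 with 168 and SLC25A11 with 116. In untreated cells the same 5 genes led, in the order SLC25A3 with 424 CPM per kb, SLC25A5 with 391, SLC25A1 with 181, SLC25A39 with 168 and SLC25A11 with 152. SLC25A25 stood at 24.97 CPM per kb in MGO, rank 10 of 44, and at 5.66 CPM per kb in untreated cells, rank 29. It thereby lay above SLC25A24 (15.7 CPM per kb) and beside SLC25A23 (24.5 CPM per kb) in MGO, whereas in untreated cells SLC25A23 had 43.5 and SLC25A24 had 22.0 CPM per kb.

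**Figure D3:**
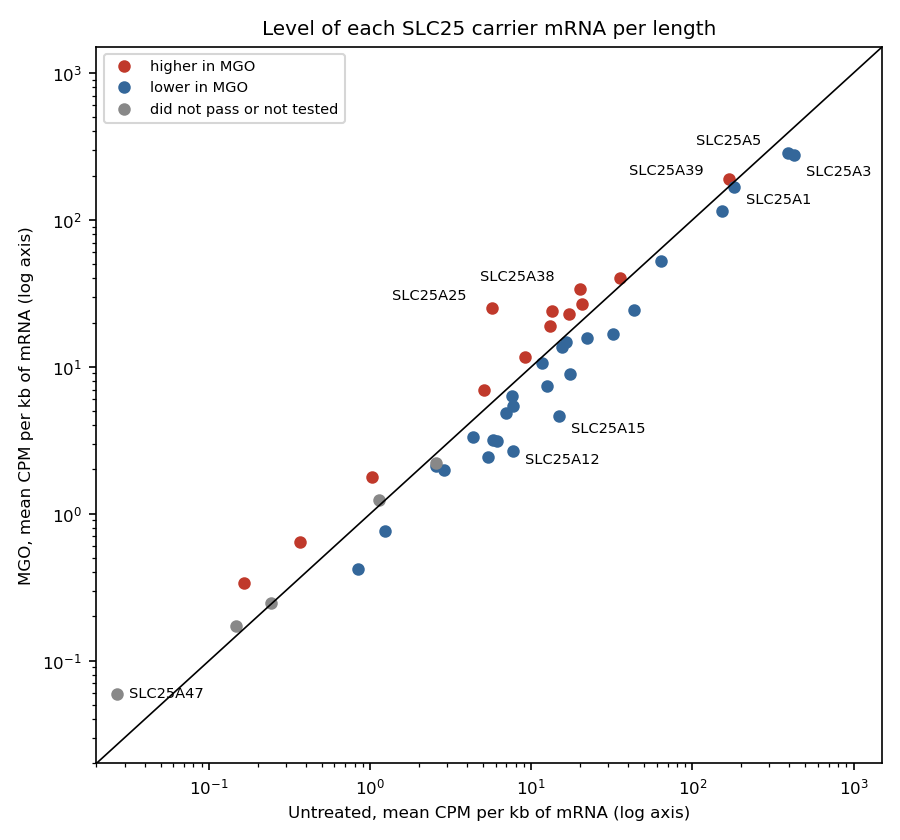
Mean level of each of the 44 carriers in CPM per kb of mRNA, MGO on the vertical and untreated on the horizontal axis, both logarithmic, with the line of equal levels. SLC25A25 lies farthest above the line among members over 1 CPM per kb, and SLC25A12 and SLC25A15 farthest below.

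Ratios of 2 carriers of 1 substrate within a library need no scaling between libraries and ask whether related genes moved by different amounts. Of 16 pairs listed, 12 had both genes tested, and in 11 the log2 ratios of the MGO and untreated libraries did not overlap (exact two-sided permutation test p = 0.1 for each, adjusted p = 0.1091 over the 12 pairs, so no pair can pass the threshold with 3 against 3). Over all 151632405 pairs of tested genes, ratios did not overlap in 82.0%, so a count of 11 of 12 is not read as particular to these pairs. The coding sequences of the 12 pairs were 60.9% to 77.2% identical. For each SLC25A25 read there were 0.683 SLC25A23 reads in MGO and 5.36 in untreated cells, a difference of -2.97 on the log2 scale. The ratio of SLC25A25 to SLC25A24 was 1.62 in MGO and 0.263 in untreated cells (difference 2.62). The ATP-Mg class therefore had SLC25A25 as its largest gene by reads in MGO and its smallest tested gene in untreated cells.

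SLC25A37 had 0.275 reads for each of SLC25A28 in MGO and 0.712 in untreated cells (difference -1.37). The ratio of SLC25A18 to SLC25A22 was 0.0947 in MGO and 0.0385 in untreated cells (difference 1.30), and that of SLC25A14 to SLC25A30 was 1.95 in MGO and 1.12 in untreated cells (difference 0.80). Both genes fell in 6 pairs, and in 5 of them the gene with fewer reads in untreated cells had the lower log2 fold change. These were SLC25A4 beside SLC25A5 (difference -0.50), SLC25A12 beside SLC25A13 (-0.58), SLC25A10 beside SLC25A11 (-0.36), SLC25A30 beside SLC25A14 and SLC25A42 beside SLC25A16. In the pair of SLC25A23 and SLC25A24 it was SLC25A23, the gene with more reads (-0.35). The matching share over all pairs of tested genes was not computed, so 5 of 6 is not read as particular to these pairs. The ratio of SLC25A16 to SLC25A42 overlapped between groups (1.33 in MGO and 1.24 in untreated cells, difference 0.09, exact two-sided permutation test p = 0.6).

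**Figure D4:**
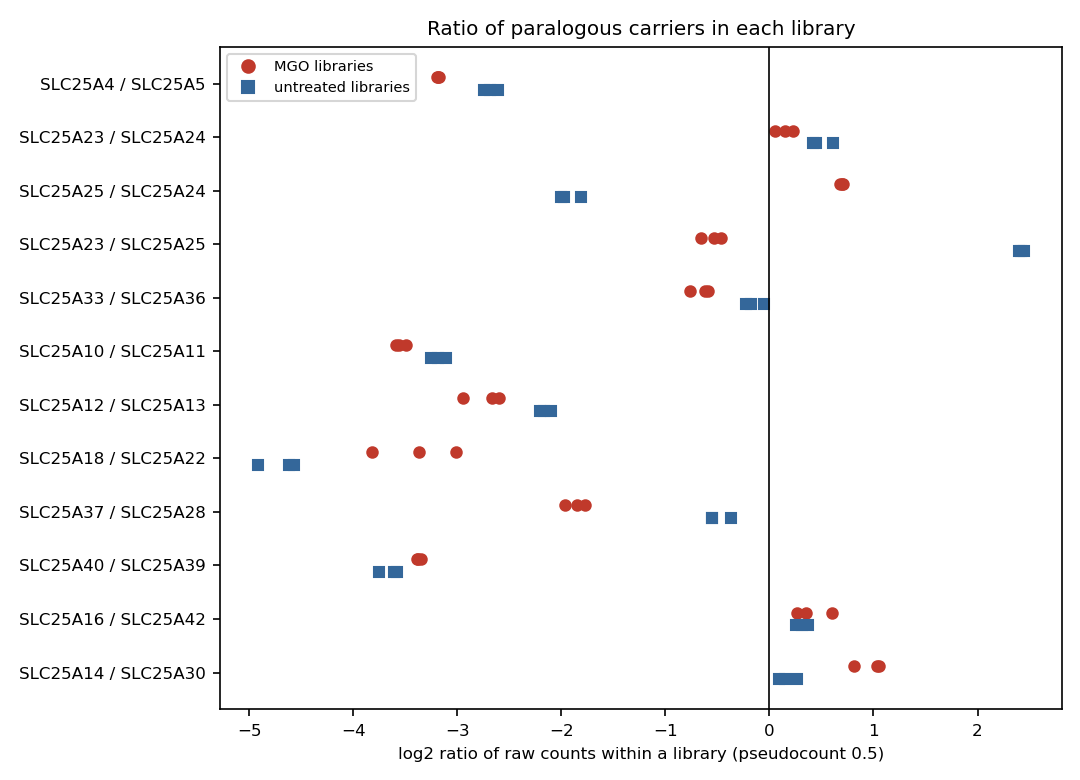
Log2 ratio of raw counts of 2 related carriers in each library, MGO as red circles and untreated as blue squares, for the 12 pairs compared. The groups are apart in 11 pairs, where 82.0% of all pairs of tested genes are apart, farthest for SLC25A23 over SLC25A25 (difference -2.97), and overlap for SLC25A16 over SLC25A42.

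The log2 fold change of members had a Spearman correlation of -0.22 with the genomic span of the gene (42 members), against -0.14 over 13466 genes. It was -0.06 with mRNA length, against -0.08 over all genes, and 0.03 with the G and C content of the coding sequence, against -0.11. These are descriptions across genes, which are not independent.

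Genes that work with the carriers also differed between the groups, here read beside the 83.1% of all genes that passed (41.2% lower and 41.8% higher). Among 5 genes of the same family that bear other names, 2 were higher and 2 lower: the mitochondrial outer-membrane gene MTCH1 had a log2 fold change of 0.56, its relative MTCH2, an insertase of that membrane, -0.49, and UCP2, an uncoupling protein, -0.41. Of 7 other inner-membrane carrier genes, 6 were lower and 1 higher, led by SFXN1, the serine carrier (-0.84), with SFXN5 (-0.65) and SFXN2 (-0.40). The porins, through which substrates cross the outer membrane, split, with VDAC1 (-1.25) and VDAC3 (-1.17) lower and VDAC2 (0.73) higher. VDAC1 had 172, 170.5 and 166 CPM in MGO and 403, 405 and 404 CPM in untreated cells, and VDAC2 had 339, 329 and 327 CPM in MGO and 201, 197 and 201 CPM in untreated cells. Neither gene's groups overlapped.

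Of 14 tested genes for import of carriers, 6 were higher, 5 lower and 3 did not pass. The 3 with the smallest p were all higher: TIMM9, a chaperone of the space between the membranes (1.56), TOMM40, the pore of the outer membrane (0.80), and TOMM70, the receptor for carrier precursors (0.77). Of 41 enzymes that make or use carried substrates, 26 were lower, 13 higher and 2 did not pass. Of all genes tested, 41.2% were lower and 41.8% higher. MAT2A, which makes the S-adenosylmethionine that SLC25A26 imports, had 28.6, 32.9 and 35.4 CPM in MGO and 260.3, 263 and 265 CPM in untreated cells (log2 fold change -3.02, SE 0.05, adjusted p = 1.988e-27 by edgeR), far more than the -0.20 of SLC25A26. PANK2, a pantothenate kinase of CoA synthesis, had a log2 fold change of 1.68, while the CoA-linked SLC25A42 and SLC25A16 were lower. The other pantothenate kinase genes of the list were lower too, with log2 fold changes from -1.85 to -0.48. FLAD1, which makes FAD, had a log2 fold change of 1.07, and SLC25A32, a carrier of folate and FAD, 0.35.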

How the data were processed

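The deposited values are raw read counts for gene symbols in 1 table for each library, with no normalization by the authors. Per the labels' protocols, libraries were made from poly(A)-selected RNA and sequenced as paired reads. STAR 2.4, HTSeq 0.9.1, Picard, Trim Galore and the build hg38 are named in the submitters' processing notes. No source used here gives their settings, the annotation or the use of strand. The members and lists were chosen with earlier results of these data known.

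The whole table was fitted in edgeR 4.0.16 (R 4.3.3): filterByExpr (17415 genes), scaling by TMM, glmQLFit with robust shrinkage, two-sided glmQLFTest and glmTreat against a fold of 1.5, with Benjamini-Hochberg adjustment over all genes at 0.05. No covariate was used, which left 4 residual degrees of freedom. CPM values were TMM-scaled here. Summed counts and within-library ratios (pseudocount 0.5) were compared by exact permutation tests. Alternatives used limma 3.58.1 (voom) and DESeq2 1.42.0, other scalings, filters and depths, and left out libraries. The fit was also run on simulated counts in which few genes changed, unlike the 83.1% called here, so that run does not check the scaling of these data. Named were members, with per-library values for those at least 2-fold changed and for at least 1 of each class, and at most the 3 genes of smallest p per related list. Library pairs within a group differed by more than sampling noise (chi-square per degree of freedom 1.88 to 14.7). GENCODE 29 gave gene models and RefSeq the promoters. A date stood instead of a symbol in 29 rows, which are not named. The values of 1 member are not reported here, though it is in all counts and sums.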

Additional observations from a re-analysis of the deposited data

How the results depend on the processing

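The count of members called stayed within 1.5 times of 39 in all 17 alternative fits, between 32 (at least 1 CPM in every library) and 40. That filter left SLC25A18, SLC25A34, SLC25A43 and SLC25A48 untested. Under it 86.5% of all genes passed, a larger share than among the members tested. In the main fit 83.1% of all genes and 92.9% of members passed. Of 39 members called, 29 kept their call and direction in every alternative fit that gave an adjusted p. The count higher against a fold of 1.5, which was 5, was 2 with library size only, 1 with no filter on low counts (median of all genes 0.2) and 3 to 4 when each library was left out in turn. SLC25A25 passed that test in all 15 alternatives, SLC25A27 in 7 and SLC25A34 in 5 of the 14 in which it was tested. Log2 fold changes that turned in sign were those of SLC25A43 (-0.064 with library size only, -0.14 with no filter, -0.14 to 0.16 when each library was left out in turn and -0.11 without both libraries numbered 1), and, with no filter, SLC25A17 (-0.0100), SLC25A39 (-0.011) and SLC25A45 (-0.063). The summed ratio of cofactor carriers was 0.977 to 1.027 when each library was left out, falling below 1 without MGO replicate 4, and the SLC25A16 to SLC25A42 difference was -0.0056 to 0.17, below 0 without MGO replicate 1. The cause was not tested. With the replicate number as a block, 33 of 42 members were called (12 higher, 21 lower), where 77.2% of all genes passed. In that fit 3 members were higher against a fold of 1.5, and SLC25A1, SLC25A14, SLC25A16, SLC25A20, SLC25A26 and SLC25A34 lost their call. Same-numbered libraries did not deviate together (correlations 0.02 for number 1 and -0.01 for number 4). With so few libraries this does not show whether they shared a culture or a day, which the labels do not say. That block fit had 1 residual degree of freedom. The lower depth of MGO limits members of about 1 CPM.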
